A study of Mus musculus with 8 samples.

Results

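Muscle calcium handling is represented here by 10 genes: *Cacna1s*, *Jph1*, *Ryr1*, *Casq1*, *Casq2*, *Atp2a1*, *Atp2a2*, *Sln*, *Pvalb* and *Camk2a*. They were chosen by name for their role, among the 19188 genes to which at least 1 ERRα peak was annotated in 4 ChIP-seq peak lists. A peak was counted for a gene when the annotation of the list gave that gene and the centre of the interval lay within 20 kb of its transcription start site (TSS). By this rule all 10 genes had a peak in at least 1 of the 4 lists, which the choice among genes named in the lists largely fixed. Over the 21887 protein-coding genes examined the share was 66.8%.

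Contraction of a skeletal muscle fibre begins when the voltage sensor of the transverse tubule opens the ryanodine receptor of the sarcoplasmic reticulum and calcium floods the cytosol. Calsequestrins hold the calcium store inside the reticulum, SERCA pumps return calcium to it after each contraction, and parvalbumin binds cytosolic calcium in fast fibres so that they relax quickly. Calcium also reaches calmodulin-dependent kinases and the calcineurin pathway, which act on fibre type and mitochondrial gene expression. ERRα is an orphan nuclear receptor known for its binding at genes of mitochondrial energy metabolism through the ERR response element (ERRE), searched here as TCAAGGTCA on either strand.

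ERRα-bound chromatin was compared between wild-type (WT) mice and mice carrying the ERRα3SA phospho-mutation, in which serines of ERRα are replaced by alanines, in skeletal muscle and liver. All mice were male, on a C57BL/6N background and 2 to 3 months old. The mutation is carried in all tissues, so the liver of the same genotype holds the mutant receptor as well. Gastrocnemius and soleus were pooled from 5 mice per genotype, and liver from 2 mice per genotype. Because fast gastrocnemius and slow soleus were mixed, the fibre types cannot be told apart. Each genotype and tissue gave 1 ERRα ChIP library and 1 peak list, so every difference between lists described here has no replicate check and no test. The labels give 3 pooled immunoprecipitations per library, whereas the study's methods describe another number.

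The lists held 25427 peaks in WT muscle, 50647 in ERRα3SA muscle, 21813 in WT liver and 29040 in ERRα3SA liver. Read numbers were not analysed here. The depth of every library is therefore unknown, and a longer list may hold more weak peaks. Peak scores were used to rank peaks within a list, and as minimums only in the alternatives at the end. A rank of 1 is the highest score, tied peaks take the best rank of the tie, and the top percentage is the rank divided by the length of the list. The tissue labels were set beside the peaks at marker genes. Of 10 skeletal muscle markers, 8 had a peak in WT muscle, 9 in ERRα3SA muscle, 6 in WT liver and 7 in ERRα3SA liver. Of 10 liver markers, 3 had a peak in WT muscle, 4 in ERRα3SA muscle, 4 in WT liver and 7 in ERRα3SA liver. Over all protein-coding genes the shares were 34.5%, 48.0%, 30.0% and 37.7% in the same order of lists. Peaks at the liver markers in WT liver were therefore near the background, and neither marker set was absent from the other tissue.

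In WT muscle, 8 of the 10 calcium handling genes had an ERRα peak within 20 kb, which were all except *Jph1* and *Sln*. The share over all protein-coding genes in that list was 34.5%. In ERRα3SA muscle, 9 of the 10 genes had a peak, all except *Jph1*, against 48.0% of protein-coding genes. The liver lists held far fewer of them. *Ryr1*, *Atp2a2* and *Pvalb* were the 3 genes with a peak in WT liver, where 30.0% of all genes had one, and *Jph1*, *Atp2a1*, *Atp2a2* and *Pvalb* were the 4 genes in ERRα3SA liver, against 37.7%. The liver counts thus lay near the background, whereas both muscle counts lay above it. However, the 10 genes were chosen among genes named in the lists, while 66.8% of protein-coding genes had a peak in any list. The background is therefore not matched to that choice, and the gap in muscle was not tested. The same limit holds wherever these 10 genes are set beside all protein-coding genes.

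The same 8 genes had a peak in both muscle lists, which 25.6% of protein-coding genes did. *Sln* was the only gene of the group with a peak in ERRα3SA muscle alone, against 22.4% of all genes, and none had one in WT muscle alone, against 8.95%. *Cacna1s*, *Casq1*, *Casq2*, *Sln* and *Camk2a* had a peak in muscle and in neither liver list, a pattern of 21.8% of protein-coding genes. At least 1 liver list held 5 of the 10 genes, against 45.0%. *Atp2a2* and *Pvalb* were the only 2 genes of the group with a peak in all 4 lists.

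The number of peaks at these genes was 22 in WT muscle, 39 in ERRα3SA muscle, 9 in WT liver and 12 in ERRα3SA liver. The ratio of ERRα3SA to WT was 1.77 in muscle and 1.33 in liver. Over all peaks within 20 kb of a TSS these ratios were 1.81 and 1.44, so the larger number at calcium handling genes in the mutant followed that of the whole list.

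**Figure D1:**
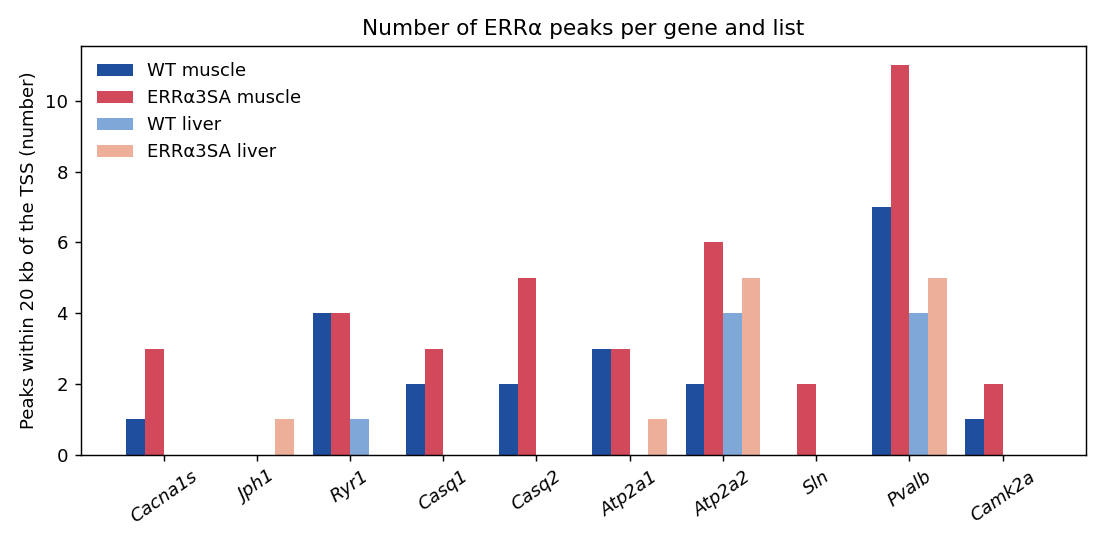
Number of ERRα peaks within 20 kb of the TSS (vertical axis) for each calcium handling gene (horizontal axis) in the 4 peak lists, 1 library per bar colour and no error bars. *Pvalb* has 7 and 11 peaks in the WT and ERRα3SA muscle lists, while *Jph1* has a single peak in ERRα3SA liver.

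The genes differed widely in how high their peaks stood in each list. In WT muscle, *Ryr1*, *Casq1*, *Casq2*, *Atp2a1* and *Pvalb* had a peak among the top 10% of the list, which 5.77% of protein-coding genes had within 20 kb. With tied peaks at the worst rank of the tie, *Casq1* moved to the top 10.6% and 4 genes remained. In ERRα3SA muscle, the 5 genes with such a peak were *Cacna1s*, *Ryr1*, *Atp2a1*, *Atp2a2* and *Pvalb*, against 9.75% of all genes. *Ryr1*, *Atp2a1* and *Pvalb* stood in the top 10% in both muscle lists. *Atp2a2* was the only gene of the group with a peak in the top 10% in either liver list, where the background was 5.14% in WT and 6.78% in ERRα3SA. The median top percentage of the peaks at these genes was 7.86 in WT muscle, against 40.2 for all peaks within 20 kb, and 23.7 in ERRα3SA muscle, against 38.7. *Pvalb* gave 11 of the 39 ERRα3SA muscle peaks. Most ERRα3SA muscle peaks of the other genes stood at the top 38.7% or lower, so this median says little about the group as a whole. In liver the medians were 37.6 in WT and 33.0 in ERRα3SA, against 45.2 and 44.8.

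**Figure D2:**
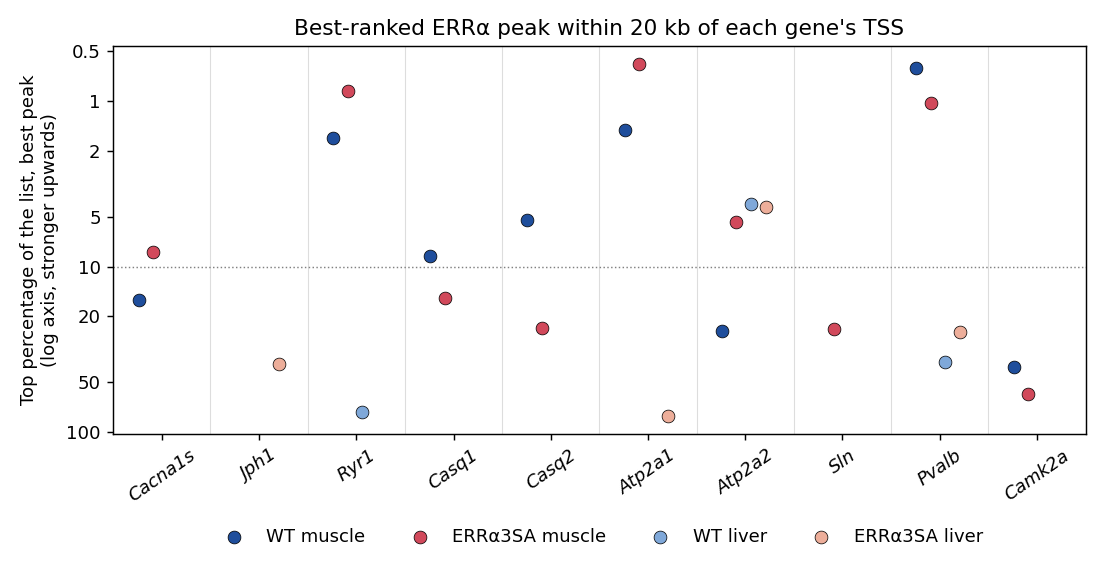
Top percentage of the best-ranked ERRα peak within 20 kb of each gene (vertical log axis, stronger peaks upwards) in the 4 lists, with a missing point where the gene has no peak and a dotted line at the top 10%. *Ryr1*, *Atp2a1* and *Pvalb* lie at 1.68, 1.49 and 0.629 in WT muscle and at 0.867, 0.594 and 1.03 in ERRα3SA muscle, far above their liver points.

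*Cacna1s* encodes the pore-forming subunit of the voltage sensor of the transverse tubule. It had 1 peak in WT muscle, 3 in ERRα3SA muscle and none in liver within 20 kb. The WT interval, chr1:136067578-136067904 on mm10, lay in intron 2 of 43 and was centred 14840 bp downstream of the TSS. It ranked 4057, in the top 16.0%. The corresponding ERRα3SA interval had its centre 177.5 bp away and ranked 4152, in the top 8.2%. The rank number was therefore similar in both genotypes, and the smaller percentage came with the longer mutant list. The other 2 ERRα3SA intervals, in intron 2 and exon 5, both ranked 32824, in the top 64.8%. An interval in intron 8, centred 24263 bp downstream in WT and 23987 bp in ERRα3SA, lay beyond 20 kb and was shared by both muscle lists. No TCAAGGTCA occurred within 20 kb of the *Cacna1s* TSS.

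*Jph1* encodes junctophilin 1, which holds the transverse tubule and the sarcoplasmic reticulum together at the junction where the voltage sensor meets the release channel. It was the only gene of the group with no peak in either muscle list, within 20 kb or anywhere in its gene body of 155819 bp. Its single interval was in ERRα3SA liver, in exon 2 of 5 at chr1:17091469-17091918, with a rank of 11212 in the top 38.6%. Both TCAAGGTCA sites within 20 kb of its TSS lay outside the intervals of all 4 lists.

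*Ryr1* encodes the calcium release channel of the sarcoplasmic reticulum. Within 20 kb of its TSS it had 4 peaks in WT muscle, 4 in ERRα3SA muscle, 1 in WT liver and none in ERRα3SA liver. The best ones lay in intron 1 of 105. In WT muscle there were 2 adjacent intervals, chr7:29122511-29123177 with a rank of 659 and chr7:29123478-29124352 with a rank of 428, in the top 2.59% and 1.68%. In ERRα3SA muscle a single interval of 1643 bp, chr7:29122502-29124144, covered 667 bases of each and ranked 439, in the top 0.867%. Its centre lay 479 and 592 bp from the WT centres, so it was not counted as shared by the rule of 300 bp, although the bases were called in both genotypes. The WT liver interval, chr7:29122923-29123170, fell inside the same stretch but ranked 16370, in the top 75.0%. The remaining intervals differed in place between genotypes, at 13635 and 15703 bp downstream of the TSS in WT and at 4298, 395 and -1231 bp in ERRα3SA.

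The intron 1 stretch held 1 ERRE, at chr7:29123055-29123063, which lay inside the intervals of WT muscle, ERRα3SA muscle and WT liver. A second site 1244 bp upstream of the TSS lay inside an ERRα3SA muscle interval only, which ranked 2721, in the top 5.37%. Both sites fall in sequence that the reference genome marks as repeats. They are shown with 16 bases on either side, 5′ to 3′ on the strand that carries the motif, with the ERRE in capitals.
Ryr1 intron 1, chr7:29123039-29123079, plus strand: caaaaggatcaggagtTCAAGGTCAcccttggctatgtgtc
Ryr1 upstream, chr7:29126375-29126415, minus strand: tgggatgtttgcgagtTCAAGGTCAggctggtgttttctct

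The highest-ranked intervals inside *Ryr1* were not annotated to it. The gene spans chr7:29003340-29125179, and a distance of 20 kb covers only its start. The whole gene body held 11 intervals in WT muscle, 14 in ERRα3SA muscle, 4 in WT liver and 2 in ERRα3SA liver. Of these, 7, 11, 3 and 2 were annotated to another gene, mostly to the microRNA gene *Mir1963*, whose start lies within the *Ryr1* gene body. Among the 968 protein-coding genes of 100 to 150 kb, the median number of intervals was 1.0 in WT muscle and 2.0 in ERRα3SA muscle, and 0.62% and 2.38% had as many as *Ryr1*. In WT and ERRα3SA liver 9.71% and 44.9% of these genes did. This count and the site pair below were chosen after the values were seen.

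An interval in intron 24 of *Ryr1* ranked 124 in WT muscle, in the top 0.488%, at chr7:29096719-29097464. In ERRα3SA muscle it ranked 136, in the top 0.269%, at chr7:29096548-29097491. It was also called in WT liver with a rank of 8204 and in ERRα3SA liver with a rank of 23394, in the top 37.6% and 80.6%. It was therefore bound in all 4 lists, high in both muscle lists and low in both liver lists, and it stood above every interval within 20 kb of the *Ryr1* TSS in muscle. The interval held 2 ERRE whose starts lie 64 bp apart, 28023 and 28087 bp downstream of the TSS and outside the sequence marked as repeats. The pair is printed because it lies under the strongest muscle interval of the gene, 5′ to 3′ on the plus strand with both sites in capitals.
Ryr1 intron 24, chr7:29097044-29097148, plus strand: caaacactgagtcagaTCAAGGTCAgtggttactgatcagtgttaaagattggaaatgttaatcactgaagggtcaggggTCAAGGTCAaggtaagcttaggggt
A further 2 intervals of the *Ryr1* body, with centres within 300 bp in both muscle lists, held no ERRE. The interval chr7:29084338-29085213 ranked 315 in WT muscle, and its ERRα3SA counterpart ranked 518. The interval chr7:29071449-29073370 ranked 788 in WT muscle and 1467 in ERRα3SA muscle.

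*Casq1* encodes the fast-fibre calsequestrin, the main calcium-binding protein inside the sarcoplasmic reticulum. It had 2 peaks in WT muscle, 3 in ERRα3SA muscle and none in liver. The WT interval in intron 1, chr1:172218021-172219234, was 1214 bp wide and ranked 2194, in the top 8.63%. Over the same stretch the ERRα3SA list held 2 narrower intervals, of 492 and 303 bp, with ranks of 32735 and 19604, in the top 64.6% and 38.7%. The best ERRα3SA interval annotated to *Casq1*, with a rank of 7851 in the top 15.5%, was centred 4927 bp upstream, inside an intron of a neighbouring gene, and had no counterpart in WT. The intron 1 position was thus called in both genotypes and stood lower in the mutant list.

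*Casq2* encodes the calsequestrin of slow fibres and heart. It had 2 peaks in WT muscle, 5 in ERRα3SA muscle and none in liver within 20 kb. The promoter interval, centred 522 bp upstream of the TSS at chr3:102085726-102086141 in WT, ranked 1338, in the top 5.26%. Its ERRα3SA counterpart had its centre 40 bp away and ranked 18857, in the top 37.2%. An interval in intron 1 of 10, centred 13724 bp downstream in WT with a rank of 2872, shared 537 bases with an ERRα3SA interval that ranked 11927, the best of the gene in that list. The top percentages there were 11.3 and 23.5. Both calsequestrin genes therefore stood higher in the WT than in the ERRα3SA muscle list, although each had more intervals in the latter. No TCAAGGTCA lay within 20 kb of the TSS of either gene.

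*Atp2a1* encodes SERCA1, the calcium pump of fast fibres. It had 3 peaks in WT muscle, 3 in ERRα3SA muscle, none in WT liver and 1 in ERRα3SA liver. The strongest interval was in intron 5 of 22, at chr7:126458387-126459688 in WT and chr7:126458713-126459870 in ERRα3SA. It ranked 380 and 301, in the top 1.49% and 0.594%, with centres 254 bp apart. No TCAAGGTCA occurred in this interval in either list. The TSS was covered by a WT interval of 1396 bp with a rank of 1805, while the ERRα3SA interval there, chr7:126462468-126462943, was 476 bp wide, ranked 4249 and lay wholly within the WT one. This promoter-proximal stretch held an ERRE 430 bp downstream of the TSS, inside both muscle intervals and neither liver list. The liver interval was in exon 15 of 23 and ranked 23217, in the top 79.9%. The site near the TSS is shown as above.
Atp2a1 intron 1, chr7:126462623-126462663, plus strand: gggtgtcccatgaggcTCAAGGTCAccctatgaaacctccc

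*Atp2a2* encodes SERCA2, the pump of slow fibres and heart, which in another isoform is present in most cell types. It had 2 peaks in WT muscle, 6 in ERRα3SA muscle, 4 in WT liver and 5 in ERRα3SA liver. Its best peak within 20 kb ranked 6260 in WT muscle, 2721 in ERRα3SA muscle, 909 in WT liver and 1269 in ERRα3SA liver. These stood in the top 24.6%, 5.37%, 4.17% and 4.37%. *Atp2a2* was the only gene of the group that stood higher in liver than in muscle in both genotypes. The best liver interval within 20 kb, centred 18174 bp upstream in WT at chr5:122520063-122520735 and 18229 bp upstream in ERRα3SA, had no partner in either muscle list. An interval at the start of the gene, chr5:122501192-122502122 in WT muscle, was called in all 4 lists with centres within 300 bp of each other in each tissue. It ranked 16894 in WT muscle, 19604 in ERRα3SA muscle, 4981 in WT liver and 3901 in ERRα3SA liver. Its GC content was 73.3% in WT muscle, the highest of the 22 intervals, whose median was 54.3%.

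A pair of overlapping ERRE about 15 kb upstream of *Atp2a2*, with starts at chr5:122517314 and chr5:122517320, lay inside intervals of ERRα3SA muscle, WT liver and ERRα3SA liver and outside those of WT muscle. The ranks were 2721, 2388 and 2730. The pair falls in sequence marked as repeats, as does the ERRE 1075 bp upstream, which only an ERRα3SA liver interval covered. A further site just beyond 20 kb, 22430 bp upstream of the TSS, lies outside such repeats and inside intervals of all 4 lists. Those intervals ranked 16894 in WT muscle, 7823 in ERRα3SA muscle, 1236 in WT liver and 1205 in ERRα3SA liver. The site was thus bound in all 4 lists, high in both liver lists and low in WT muscle. The pair and the distal site are shown because intervals of both liver lists covered them. The best liver intervals within 20 kb and those at the start of the gene held no TCAAGGTCA. In ERRα3SA liver, however, the interval over the distal site, with a rank of 1205, stood above the best one within 20 kb, with a rank of 1269.
Atp2a2 overlapping pair, chr5:122517298-122517344, minus strand: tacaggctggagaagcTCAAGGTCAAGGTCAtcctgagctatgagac
Atp2a2 distal site, chr5:122524635-122524675, plus strand: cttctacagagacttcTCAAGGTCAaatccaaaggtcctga

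*Sln* encodes sarcolipin, a small membrane protein that binds SERCA and lowers the efficiency of calcium uptake. It had no peak within 20 kb in WT muscle, WT liver or ERRα3SA liver. In ERRα3SA muscle it had 2 narrow intergenic intervals, of 278 and 345 bp, centred 9289 and 17377 bp downstream of the TSS. Both ranked 11987, in the top 23.7%. In WT muscle the nearest interval annotated to *Sln* was 56576 bp downstream. The only TCAAGGTCA within 20 kb of its TSS lay outside the intervals of all 4 lists.

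*Pvalb* encodes parvalbumin, the cytosolic calcium buffer of fast fibres, and was the most densely covered gene of the group. It had 7 peaks in WT muscle, 11 in ERRα3SA muscle, 4 in WT liver and 5 in ERRα3SA liver. As many peaks within 20 kb were found at 0.0914% of protein-coding genes in WT muscle and 0.0274% in ERRα3SA muscle, which were 20 and 6 genes. In the liver lists the shares were 1.35% and 1.36%. The best peak ranked 160 in WT muscle and 520 in ERRα3SA muscle, in the top 0.629% and 1.03%. In liver the best peaks ranked 8204 and 7231, in the top 37.6% and 24.9%. *Pvalb* peaks were therefore called in both tissues, but they stood near the head of the list only in muscle.

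The best WT muscle interval, chr15:78204945-78205558, lay in intron 1 of the longer transcript, between its 2 annotated TSSs at 78206400 and 78204237 on the minus strand. The ERRα3SA interval chr15:78204171-78205679 contained it, and their centres were 326.5 bp apart. Of the 7 WT intervals, 6 shared bases with an ERRα3SA interval and 3 had a partner within 300 bp. The interval without an ERRα3SA counterpart lay at the transcription end, 13540 bp downstream of the TSS at 78204237, with a rank of 2872. The ERRα3SA list added intervals at 446, 1136 and 17449 bp upstream of the TSS at 78206400, with ranks of 10911, 19604 and 32824. All 6 WT intervals that shared bases stood in the top 10% of their list, whereas these 3 did not.

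Within 20 kb of either TSS *Pvalb* had 6 ERRE, and 5 of them lay inside WT muscle intervals and the same 5 inside ERRα3SA muscle intervals. Of these, 2 lay inside intervals of all 4 lists, another inside a WT liver interval and another inside an ERRα3SA liver interval. All 6 lie outside the sequence marked as repeats. The sites are listed from upstream to downstream in the direction of transcription, as the gene with the most bound sites of the group. In the labels, the upstream distance is from the TSS at 78206400 and the downstream distances are from the TSS at 78204237.
Pvalb 5401 bp upstream, all 4 lists, chr15:78211781-78211821, minus strand: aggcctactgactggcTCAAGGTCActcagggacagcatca
Pvalb between the TSSs, all 4 lists, chr15:78205198-78205238, minus strand: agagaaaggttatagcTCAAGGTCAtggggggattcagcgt
Pvalb 1198 bp downstream, both muscle lists and ERRα3SA liver, chr15:78203019-78203059, plus strand: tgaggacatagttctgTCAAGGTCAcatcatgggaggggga
Pvalb 2875 bp downstream, both muscle lists and WT liver, chr15:78201342-78201382, plus strand: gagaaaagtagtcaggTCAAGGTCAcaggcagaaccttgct
Pvalb 9572 bp downstream, muscle lists only, chr15:78194645-78194685, plus strand: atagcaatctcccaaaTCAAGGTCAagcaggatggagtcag
The site between the TSSs lies under the best muscle interval. The WT and ERRα3SA liver intervals over the same site ranked 21383 and 23394, in the top 98.0% and 80.6%, so the same bases were called near the head of the muscle lists and near the foot of the liver lists.

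**Figure D3:**
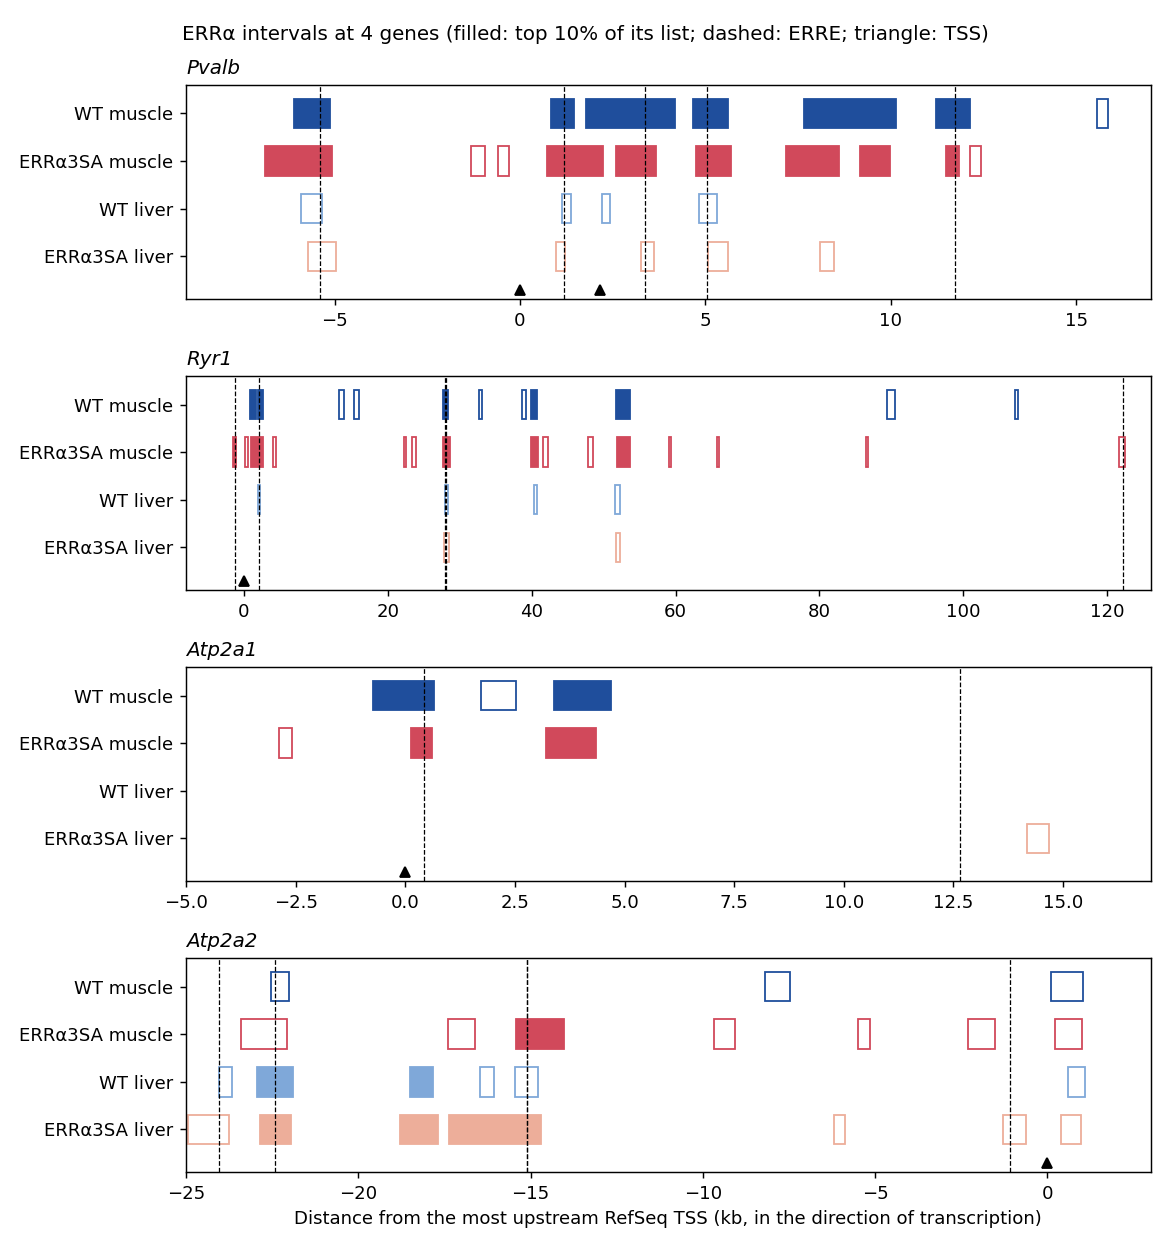
ERRα intervals in the 4 lists (rows) at *Pvalb*, *Ryr1*, *Atp2a1* and *Atp2a2* against the distance from the most upstream RefSeq TSS in kb, drawn to scale along the direction of transcription. Filled bars stand in the top 10% of their list, open bars do not, dashed lines mark TCAAGGTCA sites within 20 kb of the TSS or inside an interval, triangles mark TSSs, and intervals in the gene body that were annotated to another gene are included. Filled bars are found in the muscle rows at *Pvalb*, *Ryr1* and *Atp2a1* and mostly in the liver rows at *Atp2a2*.

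*Camk2a* encodes the alpha subunit of the calcium/calmodulin-dependent kinase CaMKII. It had 1 peak in WT muscle, 2 in ERRα3SA muscle and none in liver within 20 kb. The WT interval was intergenic, centred 3599 bp upstream of the TSS at chr18:60925632, and ranked 10219, in the top 40.2%. The ERRα3SA intervals lay in introns and ranked 29571 and 32824, in the top 58.4% and 64.8%. They were centred 5616 and 17006 bp downstream of another annotated TSS, at chr18:60963554 inside the gene body. The distances in WT and ERRα3SA are therefore not from the same start. None was shared between genotypes by distance or by bases. The gene body held 4 further WT intervals that were annotated to microRNA genes inside it, the best with a rank of 2872 in the top 11.3%, and no base of these was shared with ERRα3SA muscle. By its best peak annotated within 20 kb, *Camk2a* stood lowest of the genes with a peak in both muscle lists. The body interval with a rank of 2872 is not counted in this.

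**Figure D4:**
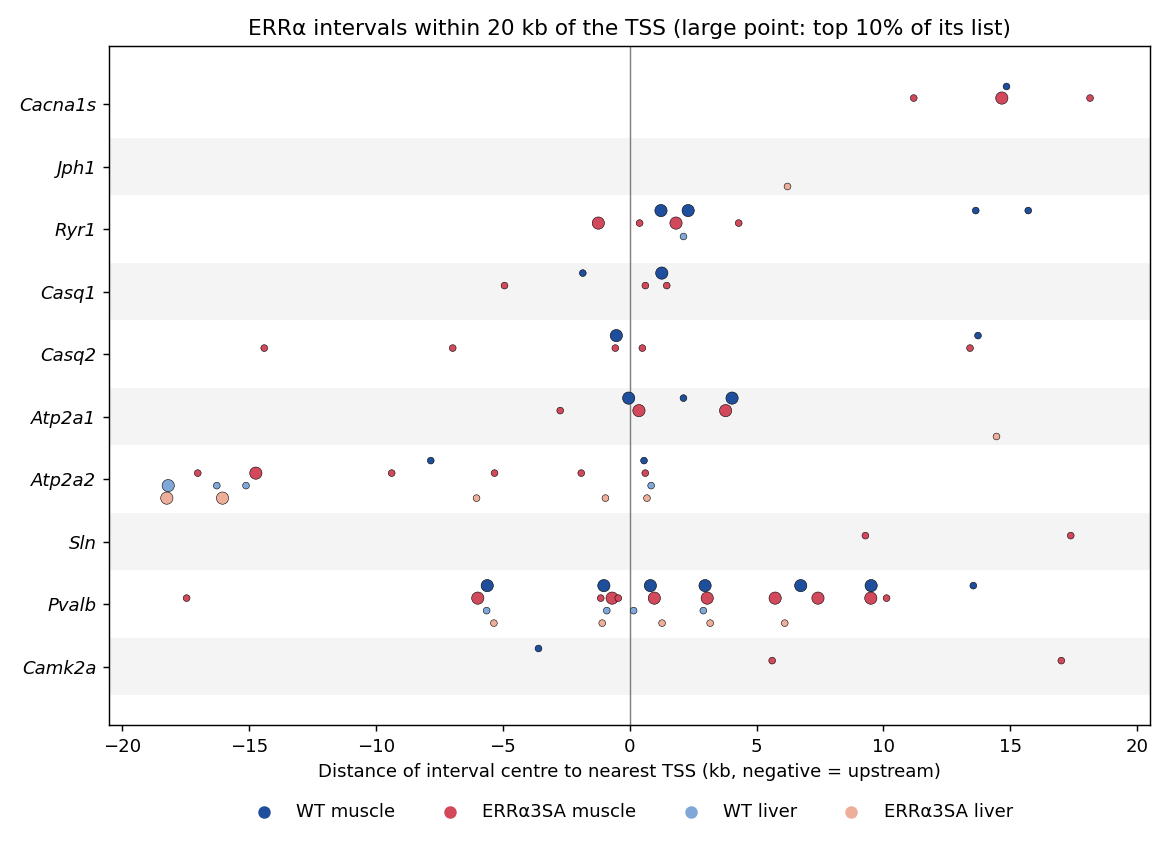
Distance of the centre of each ERRα interval to the nearest TSS in kb (horizontal axis, negative values upstream) for the 10 genes (rows) in the 4 lists (colours), with large points for intervals in the top 10% of their list. Of the 22, 39, 9 and 12 points in WT muscle, ERRα3SA muscle, WT liver and ERRα3SA liver, most large points belong to *Pvalb*, *Ryr1*, *Atp2a1* and *Atp2a2*.

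Sharing between genotypes was counted over all peaks at the 10 genes. In muscle, 8 of the 22 WT peaks had an ERRα3SA peak with its centre within 300 bp, against 23.4% of all WT muscle peaks within 20 kb. Conversely, 8 of the 39 ERRα3SA muscle peaks had a WT partner, against 12.9%. When 1 shared base was enough, 15 of the 22 WT peaks and 17 of the 39 ERRα3SA peaks had a partner, against 30.6% and 16.9%. *Pvalb* alone gave 6 of the 15 and 8 of the 17. The WT muscle intervals at the 10 genes were also wider than those of the whole list, as given below, and width was not adjusted for. In liver, 6 of the 9 WT peaks and 6 of the 12 ERRα3SA peaks had a partner within 300 bp, against 49.1% and 34.2%. By bases it was 7 and 6 peaks, against 55.9% and 38.9%. The WT muscle peaks gained with the looser rule were 3 at *Pvalb*, 2 at *Ryr1* and 1 each at *Atp2a1* and *Casq2*.

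The intervals at these genes were broad in WT muscle, with a median width of 830 bp against 470 bp for all peaks within 20 kb. In ERRα3SA muscle the median was 514 bp against 461 bp. The liver medians were 480 bp for WT and 529 bp for ERRα3SA, against 461 and 449 bp. A partner within 300 bp in the other tissue was found for 5 of the 22 WT muscle peaks and 4 of the 39 ERRα3SA muscle peaks, against 21.5% and 18.6%. For the liver peaks it was 5 of 9 and 4 of 12, against 31.2% and 27.6%. Of the muscle intervals, 13 of 22 in WT and 20 of 39 in ERRα3SA were intronic, against 45.7% and 47.0%. As promoter, 2 and 3 were annotated, against 11.9% and 8.18%.

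The lists hold no summits, so motifs were searched in the 300 bp at the centre of each interval, which need not be the summit. There TCAAGGTCA occurred in 3 of the 22 WT muscle peaks, against 4.45% of all peaks within 20 kb, and in 3 of the 39 ERRα3SA muscle peaks, against 4.86%. In liver it occurred in 4 of 9 and 4 of 12, against 15.2% and 14.9%. Over the whole interval the counts were 7 of 22 and 9 of 39 in muscle, against 7.44% and 8.27%, and 5 of 9 and 5 of 12 in liver, against 21.4% and 20.4%. Of these muscle intervals *Pvalb* alone held 5 of the 7 and 5 of the 9, and *Ryr1*, *Atp2a1* and *Atp2a2* the rest, so the count says little about the group as a whole. The E-box CAGCTG, a motif of myogenic factors that reads the same on both strands, occurred in the central 300 bp of 8 of the 22 WT and 10 of the 39 ERRα3SA muscle peaks, against 21.5% and 22.8%. In the liver peaks it occurred in 1 of 9 and 1 of 12, against 19.0% and 18.8%. The letters of both motifs can overlap, and such cases were not set apart.

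Seen from the sites, the 10 genes had 20 TCAAGGTCA within 20 kb of a RefSeq TSS. Of these, 7 lay inside WT muscle intervals and 10 inside ERRα3SA muscle intervals, against 5.48% and 10.8% of the 18621 such sites at protein-coding genes. In WT and ERRα3SA liver it was 6 in each, against 13.4% and 18.1%. At least 1 list covered 11 of the 20 sites, against 24.4%, and at least 3 lists covered 7, against 6.52%. The covered sites belonged to *Pvalb*, *Atp2a2*, *Ryr1* and *Atp2a1*, whereas the 6 sites at *Jph1*, *Sln* and *Camk2a* were covered in none. *Pvalb* alone held 5 of the 7 sites in WT muscle and 5 of the 10 in ERRα3SA muscle. The overlapping *Atp2a2* pair counts as 2 of the 10. These site counts therefore also say little about the group as a whole. RefSeq promoters, taken as 250 bp before to 50 bp after the TSS, were at hand for 7 TSSs of 6 of the genes. None of the 7 held TCAAGGTCA or its core AAGGTCA, which occurred in 0.423% and 4.72% of 32851 promoters. CAGCTG occurred in those of *Cacna1s*, *Casq1* and *Atp2a1*, against 16.3%. Muscle intervals overlapped only the promoters of *Atp2a1*, in WT, and of the shorter *Pvalb* transcript, in both genotypes.

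A wider list of 57 genes of calcium handling and signalling was counted beside the 10 genes. Of these 30 had a peak within 20 kb in WT muscle, 44 in ERRα3SA muscle, 21 in WT liver and 33 in ERRα3SA liver. That is 52.6%, 77.2%, 36.8% and 57.9%, against the 34.5%, 48.0%, 30.0% and 37.7% of all protein-coding genes given above. Both muscle lists held 25 of them, ERRα3SA muscle alone 19 and WT muscle alone 5, against 25.6%, 22.4% and 8.95% of protein-coding genes. Of the 57 genes, 14 had a muscle peak shared between genotypes within 300 bp. The share of all protein-coding genes with such a peak is not given, so this number has no background. Release channels and their partners were the role in which the muscle lists differed most in number, with 5 of 15 in WT and 14 of 15 in ERRα3SA. The best ERRα3SA peaks of the genes added there ranged from the top 6.12% to the top 64.8%. The ERRα3SA list is longer, and with lists of equal length it held 29 genes of the wider list against 30 in WT. Single roles were not counted at that setting. Voltage sensor and junction genes had 5 of 6 in each muscle list, with none in WT liver and 1 in ERRα3SA liver. Calcium sensors and signalling genes had 11 and 12 of 16, pumps and their regulators 2 and 3 of 4, plasma membrane entry and extrusion 4 and 6 of 8, and mitochondrial uptake 3 and 4 of 8.

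**Figure D5:**
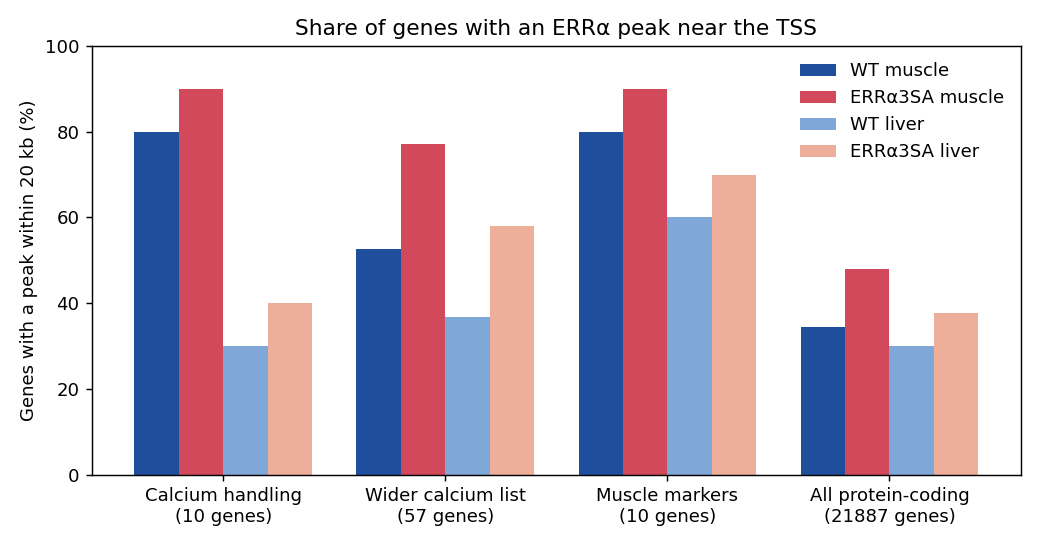
Share of genes with an ERRα peak within 20 kb of the TSS, in percent (vertical axis from 0 to 100), for the calcium handling genes, the wider calcium list, the muscle markers and all protein-coding genes in the 4 lists. The calcium handling genes stand at 80.0% and 90.0% in WT and ERRα3SA muscle, as do the muscle markers, and at 30.0% and 40.0% in WT and ERRα3SA liver.

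The shared muscle peak that stood highest in both lists was that of *Nfatc2*, a calcineurin-responsive transcription factor, with ranks of 39 in WT and 48 in ERRα3SA, in the top 0.153% and 0.0948%. *Srl*, which encodes the sarcoplasmic reticulum protein sarcalumenin, had a peak in an intron with ranks of 72 and 101, in the top 0.283% and 0.199%. *Orai1*, the pore of store-operated calcium entry, had ranks of 430 and 617. *Nfatc4* followed with 600 and 1121, and *Letm1*, an inner mitochondrial membrane protein of ion exchange, with 2872 and 4392. None of these 5 shared peaks held TCAAGGTCA in its central 300 bp. *Srl* stood in the top 45.2% in WT liver and 21.1% in ERRα3SA liver, whereas *Nfatc4* and *Orai1* stood in the top 10% in all 4 lists.

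The 10 skeletal muscle markers were bound in muscle as often as the 10 calcium handling genes, with 8 and 9 genes, and 5 and 6 of them had a peak in the top 10%. A peak count of this height in muscle was therefore not particular to calcium handling. In liver the muscle markers had peaks at 6 and 7 genes, where the calcium handling genes had 3 and 4.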

How the data were processed

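ERRα ChIP-seq peak lists of WT and ERRα3SA muscle and liver were analysed, 1 per group; the 4 input samples were mapped but not used. Per the labels and the methods of the study, the authors used Trimmomatic 0.36 for trimming and BWA 0.7.12 for mapping to mm10, removed duplicates with Picard 2.0.1, called peaks against input with MACS2 2.1.1.20160309 and annotated them with HOMER 4.9.1. The deposited score of each peak is a whole number without a fixed range. It served for ranks and, among the alternatives, for score minimums. The deposited GC content is a fraction of the interval, and it was used to check that positions are 1-based on GRCm38. Distances to the TSS are those deposited.

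Peaks were shared when centres lay within 300 bp. Sequences and TSSs came from RefSeq on GRCm38.p6, and motifs were searched on both strands. Genes named were the 10 members and, of the wider list, the 6 whose shared muscle peak had the best poorer top percentage, of which 1 is not reported here, plus markers as a list. The members and lists were chosen with earlier results of these data known. Overlap and motif searches were tested on simulated data. Python 3.11.15, pandas 2.3.3, numpy 2.4.6, pysam 0.24.0, matplotlib 3.10.9 and samtools 1.23.1 were used. Alternatives were score minimums of 50 and 100, lists of equal length, distances of 5 and 50 kb, gene bodies, other sharing rules, windows, motifs and ties. Without replicates no test between genotypes or tissues was made.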

Additional observations from a re-analysis of the deposited data

Results flagged for a closer look

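At 2 genes the best peak within 20 kb stood higher in the mutant list in one tissue and lower in the other. For *Atp2a2* the top percentage of the best peak was 24.6 in WT muscle and 5.37 in ERRα3SA muscle, and 4.17 in WT liver and 4.37 in ERRα3SA liver. Its liver values were thus nearly equal. For *Pvalb* the top percentage was 0.629 in WT muscle and 1.03 in ERRα3SA muscle, and 37.6 in WT liver and 24.9 in ERRα3SA liver. Each group is 1 library, so these differences between tissues were not tested.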

How the results depend on the processing

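No paired analysis was possible because each group is 1 library and no result comes from a test. Of 132 counts under alternatives, 74 stayed within 1.5 times the main count and 58 did not. Of all peaks within 20 kb, 18.2% in WT muscle, 17.7% in ERRα3SA muscle, 42.3% in WT liver and 47.4% in ERRα3SA liver scored at least 50. In the same order 6.13%, 6.76%, 20.2% and 22.5% scored at least 100, so each minimum was less strict in liver. Shares over all genes at the score and distance settings are not given, so those counts have no background. With a score of at least 50, members with a peak were 5, 5 and 1 in WT muscle, ERRα3SA muscle and WT liver. Their peaks were 13 in ERRα3SA muscle and 3 in WT liver, the shared peaks 4, 4, 2 and 2 in WT muscle, ERRα3SA muscle, WT liver and ERRα3SA liver, peaks with an ERRE 1 in WT liver, and genes of the wider list 7, 18, 12 and 19. With a score of at least 100, members with a peak were 3, 3, 1 and 1, their peaks 6, 8, 2 and 4, the shared peaks 3, 3, 1 and 1, peaks with an ERRE 1 in ERRα3SA muscle, WT liver and ERRα3SA liver, and genes of the wider list 5, 6, 4 and 9. With lists of equal length ERRα3SA muscle had 25 member peaks and 29 genes of the wider list, so its excess over the 22 peaks and 30 genes of WT muscle was gone or small.

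Within 5 kb of the TSS the member peaks were 13, 19, 5 and 5, the shared liver peaks 3 in each genotype, the members with a peak in ERRα3SA liver 2, and genes of the wider list there 17. Within 50 kb, WT liver had 5 members with 15 peaks and ERRα3SA liver 19 peaks. With centres within 100 bp the shared peaks were 4, 4, 1 and 1. In muscle they were 15 and 17 within 1000 bp and also with 1 shared base. The ERRE was in 7 WT and 9 ERRα3SA muscle peaks over whole intervals, and AAGGTCA in 5 and 6 central windows. With tied peaks at the worst rank, 13 of 24 top percentages of single members moved. The rank of a weak peak is thus loosely fixed, and the unknown depth limits every comparison of numbers between lists. The cause of these changes was not tested beyond what each setting removes or adds.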
